A study of Mus musculus with 17 samples.

Results

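The keratin genes of the mouse were examined for islands of histone H3.3, a variant of histone H3 that is laid down outside DNA replication at transcribed genes. The members were the protein-coding genes of the GENCODE vM21 annotation on chromosomes 1 to 19 whose symbol is Krt followed by a number, without the keratin-associated protein genes (Krtap). This rule gave 53 of the 20807 protein-coding genes on these chromosomes. Of these, 27 form a cluster on chromosome 11, Krt222 to Krt42, and 26 form a cluster on chromosome 15, Krt80 to Krt18. A gene was counted as having an island where its body plus 1 kb on each side (its window) shared at least 1 bp with an island of a library, and its covered share is the percentage of that window inside islands. Keratin genes span 2812 bp (Krt16) to 22719 bp (Krt80), with a median of 6594 bp against 17629 bp for all protein-coding genes.

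H3.3 was measured by ChIP-seq in 4 libraries from untreated newborn CD1 mice, 2 of lens epithelium and 2 of lens fibers, which the study generated to place active chromatin beside DNA methylation in lens differentiation. The epithelium is the dividing cell sheet at the front of the lens, and the fibers are the elongated postmitotic cells that differentiate from it. By the labels each sample pooled 150 microdissected lenses, so a library averages over many animals, and chromatin of 12 µg was precipitated with 5 µl of anti-H3.3 antibody. The labels name the 2 libraries of a compartment biological replicates but do not say whether they came from separate litters or days. Epithelium replicates 1 and 2 held 10389 and 14434 islands with 1331369 and 1430373 reads in them. Fiber replicates 1 and 2 held 27059 and 35940 islands with 5041885 and 5359085 reads. Where 4 values stand in a row, they belong to epithelium replicates 1 and 2 and then to fiber replicates 1 and 2. The read numbers are those inside islands only. The total depth of each library is unknown, so a gene without an island is a gene where none was called, and no interval or floor was computed. In chromatin of whole tissue, a share of cells carrying H3.3 and the amount of H3.3 per cell cannot be told apart.

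The labels were checked against marker genes. All 9 lens fiber markers had an island in both fiber libraries, among them Cryaa (αA-crystallin), Mip and Lim2, with 100% of the window covered in each of the 2 libraries. The same list had islands at 5 and 7 of 9 genes in epithelium replicates 1 and 2, with Cryaa covered over 93.4 and 100% of its window. Of the 4 lens epithelium markers, Pax6 was covered over 77.0 and 82.9% of its window and Cdh1 over 16.5 and 26.1% in the epithelium replicates, and over 94.7 and 86.2% and 41.9 and 50.1% in the fiber replicates. All 4 had an island in both fiber libraries, so these markers do not set the epithelium libraries apart from the fibers. Foxe3, a transcription factor of the lens epithelium, had no island in epithelium replicate 1 and was wholly covered in epithelium replicate 2 and in both fiber libraries. Sox2 likewise had none in epithelium replicate 1, against 78.8, 70.5 and 49.2% in epithelium replicate 2 and fiber replicates 1 and 2. Epithelium replicate 1 therefore lacked islands at 2 of 4 markers of its own compartment. Among all protein-coding genes 28.6, 33.5, 54.5 and 60.5% had an island in the 4 libraries, so 2 of 4 was not fewer than the background of that library. The marker counts that follow stand beside the same shares. Counts are given below for each library, and the main difference also without epithelium replicate 1. Of the 6 markers of corneal and surface epithelium, the tissue that uses many of the keratins, 0, 1, 0 and 2 had an island in the 4 libraries, and Krt12, Krt14 and Trp63 had none in any. Retinal markers had islands at 2, 1, 2 and 1 of 5 genes, with Crx, Nrl and Rcvrn at none, and those of iris and pigment epithelium at 0, 0, 0 and 2 of 5. Vessel markers had islands at 1, 2, 2 and 2 of 4 genes and blood cell markers at 1, 2, 2 and 2 of 4, where Cd68 was covered over 86.0 to 100%, and Ptprc and the red cell gene Hbb-bt had none. What such cells contribute to the keratin counts was not tested.

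Keratins are the intermediate filament proteins of epithelial cells. A filament needs an acidic type I and a basic type II keratin in equal amounts, and each epithelium uses its own pairs, such as KRT8 with KRT18 in simple epithelia, KRT5 with KRT14 in the basal layer of stratified epithelia and KRT1 with KRT10 in the layers above it. In the lens, vimentin is the main intermediate filament protein of the epithelium, and fibers add the beaded filament proteins filensin (Bfsp1) and phakinin (Bfsp2), whereas the surface ectoderm from which the lens arises and the neighbouring cornea use keratins.

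The promoters shown first are those of the simple-epithelium genes Krt7, Krt8 and Krt18, which differed in island content, and of Krt40, the hair shaft keratin whose window was covered most evenly in both fiber libraries. They are the RefSeq stretches of 250 bases before to 50 after the start, cut to the part outside annotated exons, on the gene's strand in GRCm38.p6 (the same assembly as mm10), with CG dinucleotides in capitals.
Krt7, chr15:101412153-101412234 (+): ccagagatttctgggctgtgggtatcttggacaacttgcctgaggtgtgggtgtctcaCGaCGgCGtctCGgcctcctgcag
Krt8, chr15:102004483-102004592 (-): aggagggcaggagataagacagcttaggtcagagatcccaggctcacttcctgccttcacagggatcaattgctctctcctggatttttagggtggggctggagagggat
Krt18, chr15:102027966-102028179 (+): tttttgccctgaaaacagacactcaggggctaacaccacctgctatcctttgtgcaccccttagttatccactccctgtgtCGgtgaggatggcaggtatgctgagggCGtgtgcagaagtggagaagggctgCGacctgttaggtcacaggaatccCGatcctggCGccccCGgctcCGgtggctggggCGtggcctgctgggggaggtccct
Krt40, chr11:99543221-99543470 (-): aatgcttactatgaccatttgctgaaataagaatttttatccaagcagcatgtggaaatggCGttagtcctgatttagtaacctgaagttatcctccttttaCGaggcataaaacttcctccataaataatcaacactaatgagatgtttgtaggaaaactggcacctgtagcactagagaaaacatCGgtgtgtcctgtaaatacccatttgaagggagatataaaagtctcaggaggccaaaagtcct
The Krt7 and Krt8 stretches lay inside an island in fiber replicate 1 over all of their 82 and 110 bases, and in no island of the other libraries. Those of Krt18 and Krt40 lay in no island of any library. The stretches hold 4, 0, 8 and 3 CG in the order printed. The RefSeq start of Krt7 lies 1360 bp downstream of the GENCODE start, so its stretch is intronic in the longer annotation, and that of Krt8 lies 140 bp downstream of its GENCODE start.

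Few keratin genes carried an island in the lens epithelium and more did in the fibers, but in every library the share lay below that of protein-coding genes as a whole. In epithelium replicates 1 and 2, 7 and 4 of 53 keratin genes had an island (13.2 and 7.55%), where 28.6 and 33.5% of all protein-coding genes did. In fiber replicates 1 and 2, 16 and 15 had one (30.2 and 28.3%), where 54.5 and 60.5% of all protein-coding genes did. The counts of the 2 compartments did not overlap, at 5.5 ± 2.12 genes (SD, n = 2) in epithelium and 15.5 ± 0.707 in fibers, a ratio of 2.82. The exact two-sided permutation test over the 4 libraries gave p = 0.33, which is the smallest p that 2 libraries against 2 can give. Over all protein-coding genes the same ratio was 1.85, with 6458.5 ± 721 and 11965.5 ± 894 genes. Without epithelium replicate 1 the difference was 11.5 genes in place of 10. Every library was then held to 10389 islands, the densest or those with the most reads. The difference changed sign, to -0.5 genes (exact permutation p = 1.0) and -1.5 genes (exact permutation p = 0.67), respectively. The share of all protein-coding genes was not counted at this setting, so whether the change is particular to keratins was not tested.

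Shorter genes meet islands less often, so the keratins were also set beside the 3190 protein-coding genes between 4813 and 9161 bp, the range of the keratins from the lower to the upper quartile of length. Of these, 25.1, 28, 41.9 and 44.7% had an island in the 4 libraries, still more than of the keratins in each. The same order held for genes with an island in both libraries of a compartment, whether or not the islands overlapped. Both epithelium libraries had an island at 2 keratin genes (3.77%), Krt79 and Krt80, against 22.4% of all protein-coding genes and 19.7% of those of similar length. Both fiber libraries had one at 9 (17.0%), namely Krt222, Krt10, Krt40, Krt80, Krt7, Krt81, Krt83, Krt77 and Krt79, against 51.7 and 39%. No island in any library was found at 28 keratin genes (52.8%), against 35% of all protein-coding genes and 50.8% of those of similar length, so for this count gene length brought the background close to the keratins.

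Islands over the start of a keratin gene were rare. They were called at 3, 0, 3 and 3 genes in the 4 libraries (5.66, 0, 5.66 and 5.66%), while 13.1, 15.3, 38.3 and 43.6% of all protein-coding genes had one. Among genes of similar length the shares were 14.9, 16.0, 33.2 and 35.4%. In epithelium replicate 1 the genes were Krt80, Krt1 and Krt4, in fiber replicate 1 Krt83, Krt15 and Krt8, and in fiber replicate 2 Krt40, Krt80 and Krt4. These calls use GENCODE starts. The RefSeq start of Krt7 lay inside its island in fiber replicate 1, and that of Krt40 just outside its island in fiber replicate 2. By the GENCODE starts, no keratin gene start lay in an island of both replicates of a compartment. In epithelium this was fixed by the count of 0 in replicate 2, and the share over all protein-coding genes was not counted. By the same starts, the share at gene starts was no higher in fiber replicates than in epithelium replicate 1.

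**Figure D1:**
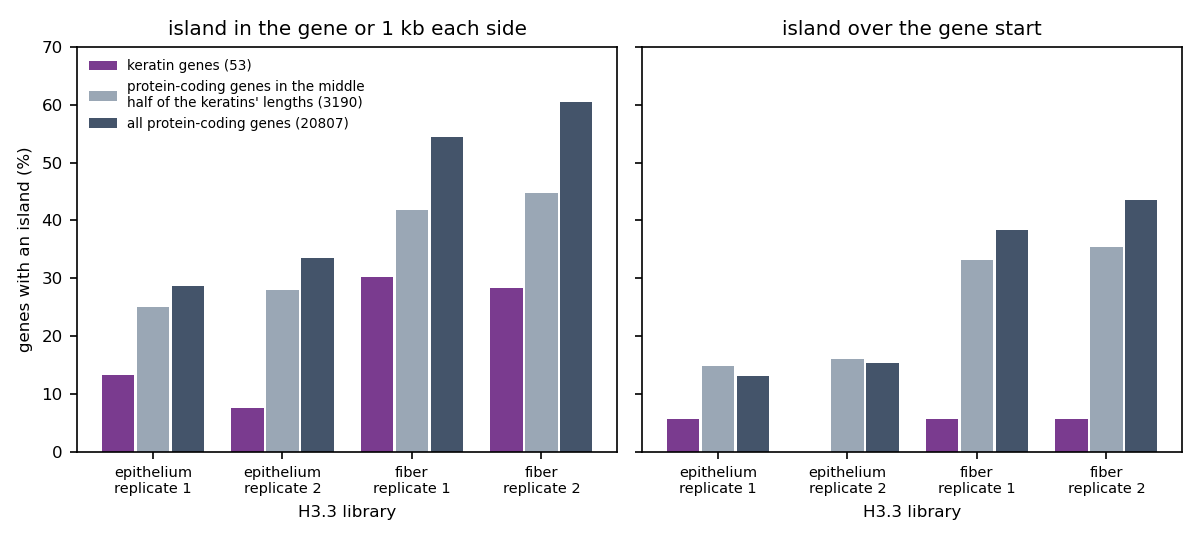
Share of genes (%) with an H3.3 island in the gene or 1 kb on each side (left) and over the gene start (right), in each of the 4 libraries, for the 53 keratin genes, the 3190 protein-coding genes of similar length and all 20807 protein-coding genes. The keratin bar is the lowest in every library, and at gene starts it is 5.66% in both fiber replicates beside 38.3 and 43.6% of all protein-coding genes.

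The replicates shared a smaller part of their keratin genes than of all protein-coding genes. Of the 7 and 4 genes with an island in epithelium replicates 1 and 2, 2 were the same, which is 28.6 and 50% of the 2 lists. Of the 16 and 15 in fiber replicates 1 and 2, 9 were the same, which is 56.2 and 60% of the lists. For all protein-coding genes the shares were 78.2 and 66.8% in epithelium and 94.9 and 85.4% in fibers. Of the 25 keratin genes with any island, 14 had it in a single library, 7 in 2 libraries, 2 in 3 (Krt7 and Krt81) and 2 in all 4 (Krt79 and Krt80). This split was not counted over all protein-coding genes, so whether it is particular to keratins was not tested. The covered share was above both epithelium libraries in both fiber libraries at 5 keratin genes (9.43%), Krt222, Krt10, Krt40, Krt83 and Krt77, where 42.5% of all protein-coding genes had this order. The opposite order was found at 0 keratin genes and at 0.769% of all protein-coding genes.

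Keratins of simple epithelia, which line ducts and single-layered sheets, were set against the rest of the clusters. Of Krt7, Krt8, Krt18 and Krt19, 0 and 1 had an island in the epithelium libraries, and 3 and 1 in the fiber libraries. The other 49 keratin genes had islands at 7 and 3 (14.3 and 6.12%) and at 13 and 14 (26.5 and 28.6%) of their number. The means were 0.5 ± 0.707 and 2 ± 1.41 of 4 genes (SD, n = 2) for the simple keratins, with 1 epithelium and 1 fiber library at the same count and an exact two-sided permutation p of 0.67. For the other keratins they were 5 ± 2.83 (3 without epithelium replicate 1) and 13.5 ± 0.707 of 49 genes, with no overlap between compartments, as for all protein-coding genes (28.6 and 33.5% against 54.5 and 60.5%), and an exact two-sided permutation p of 0.33, the smallest possible. With 10389 islands in every library, the other keratins counted 5 in epithelium and 4 in fibers by density, and 4 and 2.5 by reads. This turns the direction for the other keratins, but no such count was made over all protein-coding genes. The simple keratins counted 0 and 0.5 by density and 0.5 and 0.5 by reads. With 4 genes, a single gene is 25% of the list. By share, the simple keratins lay above the others in epithelium replicate 2 (25 against 6.12%) and fiber replicate 1 (75 against 26.5%), and below them in epithelium replicate 1 and fiber replicate 2.

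Krt7 was the only simple keratin with an island in both fiber libraries. Krt7 (ENSMUSG00000023039.17) encodes a type II keratin of glandular and ductal epithelia and lies at chr15:101411043-101430313 on the plus strand. Its covered share was 0, 27.3, 26.3 and 20.7% in the 4 libraries, so that epithelium replicate 2 was as high as the fibers and epithelium replicate 1 stood apart. The fiber islands, chr15:101411201-101416800 with 162 reads (28.9 reads per kb) and chr15:101413001-101417400 with 130 reads (29.5 reads per kb), lay over the first part of the gene from 158 and 1958 bp after its start. The first epithelium island, chr15:101413201-101416400 with 78 reads (24.4 reads per kb), lay wholly inside both of them, and a second at chr15:101425201-101427800 with 67 reads met no fiber island. The covered share was 13.6 ± 19.3% in epithelium and 23.5 ± 3.99% in fibers (SD, n = 2). The difference of 9.87 percentage points turned to -3.76 without epithelium replicate 1, and to -0.470 with an equal number of islands chosen by reads, whereas it was 13.2 with an equal number chosen by density.

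Krt8 and Krt18, the pair that fills simple epithelia and the first keratins made in the embryo, lie side by side at the end of the chromosome 15 cluster. Krt8 (ENSMUSG00000049382.10, chr15:101996698-102004482, minus strand) had a covered share of 0, 0, 36.8 and 0% in the 4 libraries. Its single island, chr15:102001401-102005000 in fiber replicate 1, held 92 reads in 3600 bp (25.6 reads per kb), and reached from position -518 to position 3081 relative to the gene start, across the start itself. Krt18 (ENSMUSG00000023043.7, chr15:102028180-102032027, plus strand) had 0% in all 4 libraries. The nearest islands to Krt18 were 40980, 13580, 13780 and 2580 bp away in the 4 libraries. With 5 kb on each side the island of fiber replicate 2 was met, and the mean covered share of Krt18 was 6.5 percentage points higher in fibers. Within 1 kb, no library had islands at both genes of the pair.

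Krt19, a type I keratin of ductal epithelia, lies in the other cluster (ENSMUSG00000020911.14, chr11:100140810-100148665, minus strand). Its covered share was 0, 0, 6.0 and 0%. The island behind it, chr11:100134401-100140400 in fiber replicate 1, ended 410 bp short of the gene end and covered the start of the neighbour Krt15, so a single island counts for both genes. It held 120 reads in 6000 bp, 20 reads per kb, and 0.698% of the islands of its library were less dense. When the gene body alone was counted, Krt19 had no island.

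**Figure D2:**
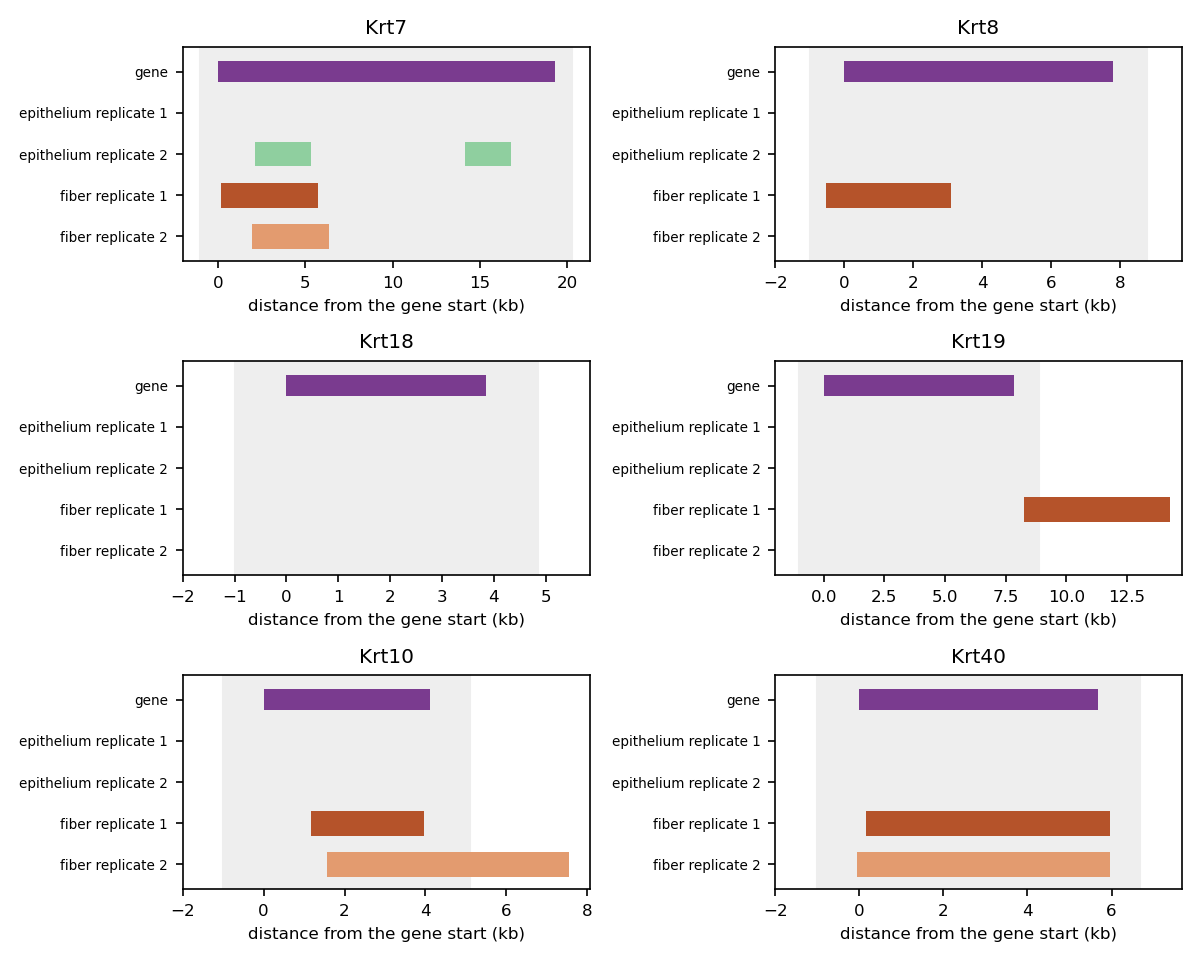
Islands of the 4 libraries at Krt7, Krt8, Krt18, Krt19, Krt10 and Krt40 by distance from the gene start (kb, in the direction of transcription); purple bars are gene bodies, green and brown bars are islands of epithelium and fiber libraries, and grey marks the gene plus 1 kb on each side. Krt18 has none, Krt8 and Krt19 have 1 in fiber replicate 1, Krt7 has islands in 3 libraries over its first part, and Krt10 and Krt40 have islands in both fiber libraries only.

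Among keratins of the basal layer, the cornea and the mucosa, Krt5, Krt13 and Krt15 had an island in a single library and Krt4 in 2. An island was called at 0, 0, 1 and 1 of 3 basal genes and at 1, 0, 0 and 2 of 4 genes of mucosa and cornea. Among all protein-coding genes the shares were 28.6, 33.5, 54.5 and 60.5%, and 35% had none in any library. Krt5 and Krt14 form the basal cell pair and Krt15 is a basal type I keratin also found in hair follicle stem cells. The covered share of Krt5 was 11.5% in fiber replicate 2 and 0% elsewhere, from an island that ended 103 bp upstream of the gene. Krt15 had 41.0% in fiber replicate 1 and 0% elsewhere, and Krt14 had 0% in all 4 libraries, with its nearest island 56853 bp or more away. Krt12, the keratin of the corneal epithelium, had 0% in all 4 libraries with the nearest island 27466 bp or more away. Krt4 and Krt13 form the pair of mucosal epithelia. Krt4 was covered over 65.1% of its window in epithelium replicate 1 and 46.3% in fiber replicate 2, and Krt13 over 44.9% in fiber replicate 2 alone. Krt76 of the oral mucosa had no island.

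Of the 5 suprabasal keratins, Krt10 and Krt77 had a covered share in both fiber libraries above that in both epithelium libraries. This order held at 42.5% of all protein-coding genes, so 2 of 5 lay near the background. Neither gene had an island in an epithelium library. Krt10, the type I keratin of differentiating epidermal cells (ENSMUSG00000019761.10, chr11:99385254-99389364, minus strand), had covered shares of 0, 0, 45.8 and 58.0%. Its islands held 91 reads in 2800 bp in fiber replicate 1 (32.5 reads per kb, denser than 84.6% of the islands of that library) and 135 reads in 6000 bp in fiber replicate 2 (22.5 reads per kb, denser than 9.71%). Krt1, its type II partner, had 54.3% in epithelium replicate 1 and 0% in the other 3 libraries. Krt77 had 0, 0, 38.5 and 23.1%. Krt2 of the upper epidermis and Krt9 of the footpads had no island. The stress and appendage keratins Krt6a, Krt6b, Krt16 and Krt17, which are made in wounds and hair follicles, had 0% in all 4 libraries, but Krt6a, Krt6b and Krt16 also hold the repeated sequence described further on. Among all protein-coding genes 35% had no island in any library.

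The hair shaft keratins, which harden the hair, had fewer genes with an island than the background in each library, but included Krt40, Krt81 and Krt83 with over 70% of the window covered in a fiber library. Of 15 genes, 1, 1, 5 and 4 had an island in the 4 libraries, and 9 had none in any, against 28.6, 33.5, 54.5 and 60.5% of all protein-coding genes with an island and 35% with none. Krt40, a type I keratin of the hair cuticle (ENSMUSG00000059169.9, chr11:99537485-99543158, minus strand), had covered shares of 0, 0, 75.6 and 78.2%, the least spread between fiber replicates among members with islands in both. Its islands in fiber replicates 1 and 2 held 194 and 228 reads, 33.4 and 38.0 reads per kb, and were denser than 88.0 and 95.6% of the islands of their libraries. That of fiber replicate 2, chr11:99537201-99543200, covered the whole gene as annotated by GENCODE. Krt83, a type II keratin of the hair cortex, had 0, 0, 90.5 and 43.8%. Krt81 of the cortex had 73.8, 0, 70.8 and 32.0%, so that epithelium replicate 1 lay with the fibers and epithelium replicate 2 did not. Krt82 of the cuticle had 0, 15.7, 31.4 and 0%, with islands in 1 replicate of each compartment. Krt84 had 40.6% in fiber replicate 1 alone and Krt32 23.5% in fiber replicate 2 alone.

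Inner root sheath and companion layer keratins, which mould the growing hair, had islands at 1, 0, 1 and 1 of 8 genes, against 28.6, 33.5, 54.5 and 60.5% of all protein-coding genes. Krt71 was covered over 30.5% in epithelium replicate 1, Krt75 over 22.3% in fiber replicate 2 and Krt72 over 0.236% in fiber replicate 1, each in that library alone. Krt25, Krt26, Krt27, Krt28 and Krt73 had none.

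The 10 remaining keratins held both members with an island in every library. Krt80, a type II keratin of many differentiating epithelia and the longest member (ENSMUSG00000037185.9, chr15:101347444-101370162, minus strand), had covered shares of 37.1, 15.4, 26.7 and 4.70%. Krt79, a keratin of the hair follicle opening (ENSMUSG00000061397.8, chr15:101929332-101940324, minus strand), had 8.23, 13.9, 19 and 3.61%. At both genes the compartments overlapped, and fiber replicate 2 was the lowest of the 4 libraries. The islands did not always share a place. At Krt80 those of fiber replicates 1 and 2, chr15:101351401-101358000 and chr15:101370001-101373400, did not meet. At Krt79 those of epithelium replicates 1 and 2, chr15:101924001-101929400 and chr15:101929601-101931400, did not either. Replicates did meet at Krt80 in epithelium and at Krt79 in fibers. How many of all protein-coding genes had an island in every library was not counted. In fiber replicate 2 the Krt79 island began 532 bp outside the gene and lay over the start of Krt4, and in epithelium replicate 1 as well a single island served both genes. Krt222 had 0, 0, 10.8 and 0.300%, Krt42 48.9% in epithelium replicate 1 alone, Krt90 56.8% in fiber replicate 2 alone and Krt23 8.16% in fiber replicate 1 alone, where the island of 1400 bp lay within an intron. Krt20, Krt24, Krt78 and Krt88 had none.

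**Figure D3:**
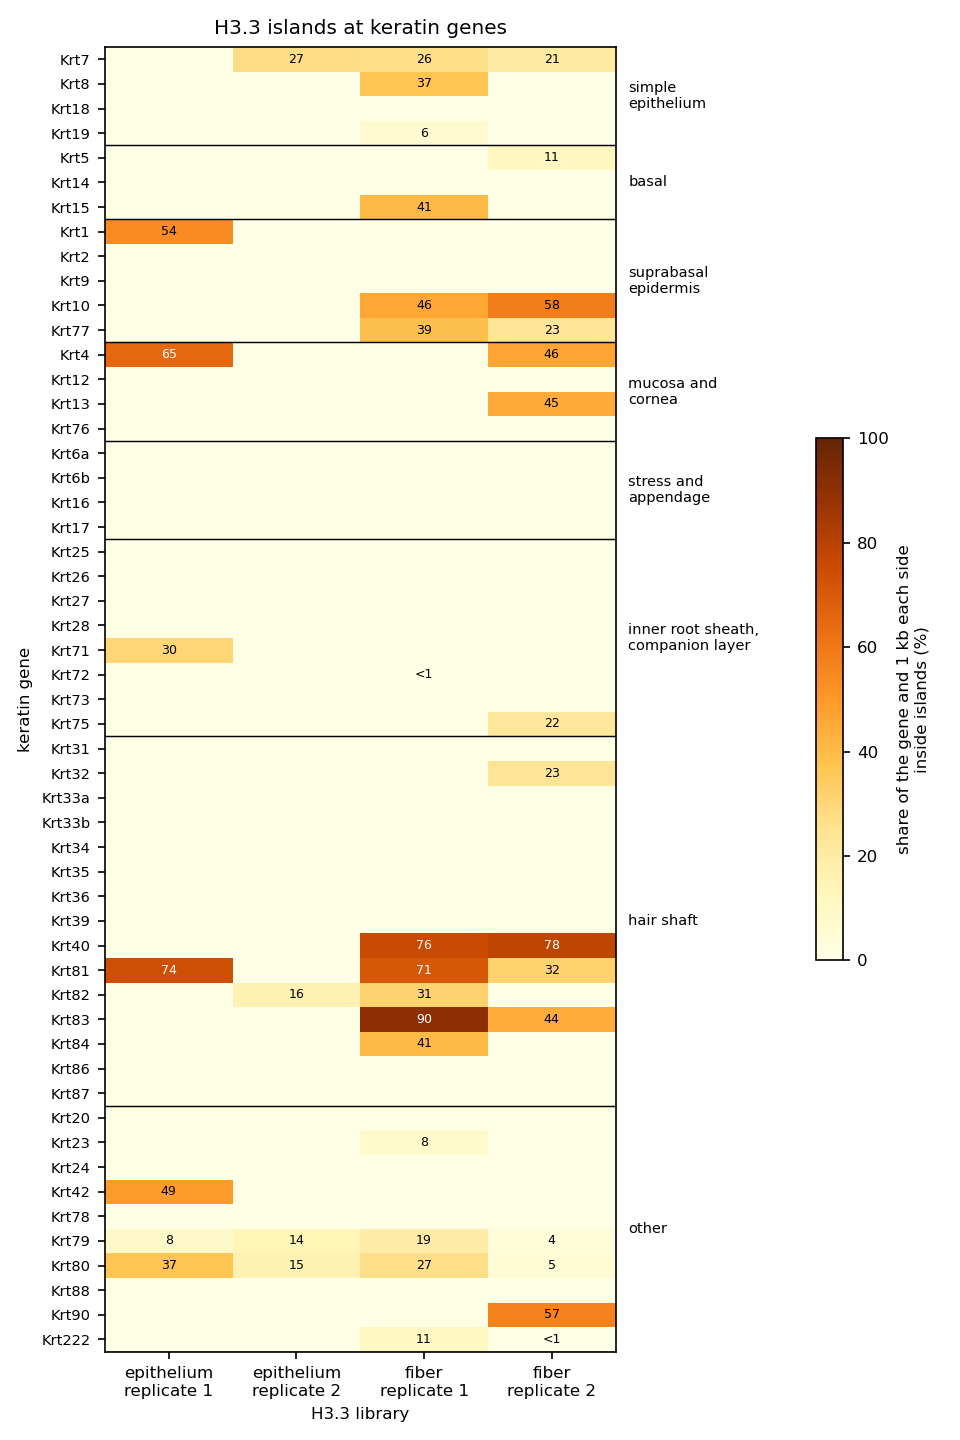
Covered share (%, color and printed number) of each of the 53 keratin genes plus 1 kb on each side in the 4 libraries, grouped by the epithelium in which the keratins are known. Most cells are empty, 28 genes have no island in any library, and Krt79 and Krt80 alone are filled in all 4.

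The counts depended on the 1 kb limit on each side. With the gene body alone the mean of the fiber libraries was 13 genes in place of 15.5 and that of epithelium stayed at 5.5, and with 5 kb they were 21.5 and 8.5. At 1 kb, the least overlap counted was that of Krt72 in fiber replicate 1, whose island lay 972 bp outside the gene, followed by Krt222 in fiber replicate 2 at 961 bp. In each library the nearest uncounted island lay 1134 bp from Krt82 in fiber replicate 2, 1666 bp from Krt4 in fiber replicate 1, 1972 bp from Krt72 in epithelium replicate 1 and 2450 bp from Krt81 in epithelium replicate 2. For keratin genes without an island, the median distance to the nearest was 74.7, 127, 23.6 and 18.2 kb.

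The islands at keratin genes had lengths near the library medians and, outside fiber replicate 1, lay mostly below the median density. There were 8, 5, 16 and 15 such islands in the 4 libraries. Their median lengths were 4500, 2600, 5200 and 3600 bp, beside 3800, 3000, 5200 and 4000 bp for all islands of the same libraries. Their median densities were 26.2, 26.8, 26.9 and 25.4 reads per kb, beside 28.3, 28.1, 27.4 and 27.5. Islands below the median density of their library numbered 7 of 8, 3 of 5, 8 of 16 and 11 of 15. They held 51 to 151 reads in epithelium and 58 to 228 in fibers. Counted by gene, epithelium islands lay inside the gene over exons in 8 cases, over the gene start in 3 and over the gene end in 3. Fiber islands lay over the gene end in 13 cases, inside the gene over exons in 8, over the start in 5, in the downstream flank in 4, in the upstream flank in 2, in an intron in 1 and over the whole gene in 1.

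The clusters differed. The chromosome 11 cluster (chr11:99232761-100269871, 1.04 Mb), with its 27 type I genes, was poor in islands, with 0.424, 0, 2.57 and 2.26% of its length covered in the 4 libraries against 4.84, 4.81, 13.7 and 13.6% of chromosome 11. It held 1, 0, 8 and 7 islands. Its 41 other protein-coding genes, 23 of them named Krtap and coding for hair matrix proteins, had an island at 0, 0, 1 and 2 genes, Krtap31-1 in both fiber libraries and Krtap16-1 in fiber replicate 2. Of 117 windows of the same length laid end to end along chromosome 11, 44, 0, 39 and 35 were less covered than the cluster, which lay below the median of these windows (1.54, 1.75, 9.77 and 10.9%) in each library.

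The chromosome 15 cluster (chr15:101347444-102032027, 0.685 Mb), which holds all 25 type II genes and Krt18, was covered over 6.75, 3.56, 13.8 and 14.2% against 2.18, 2.25, 8.86 and 9.0% of chromosome 15, which is 3.10, 1.58, 1.55 and 1.58 times as much. It held 10, 9, 19 and 20 islands. Of 151 windows of the same length on chromosome 15, 130, 121, 113 and 112 were less covered. In epithelium, 2 of the 10 islands in replicate 1 and 2 of the 9 in replicate 2 met an island of the other replicate. In fibers 12 of 19 and 11 of 20 did so. The same share over all islands of a library was not counted, so whether these overlaps are particular to the cluster was not tested. By gene type, 1, 0, 6 and 5 of 28 type I genes and 6, 4, 10 and 10 of 25 type II genes had an island, and 19 and 9 had none in any library. Among all protein-coding genes 28.6, 33.5, 54.5 and 60.5% had an island and 35% had none in any library, and among those of similar length 25.1, 28, 41.9 and 44.7% and 50.8%. Type I genes lay below both backgrounds in each library, whereas type II genes lay near those of similar length in epithelium replicate 1 and in the fibers, and their share with no island in any library was near that of all protein-coding genes. Of the 26 genes here, Krt18 was the only type I keratin and had none.

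**Figure D4:**
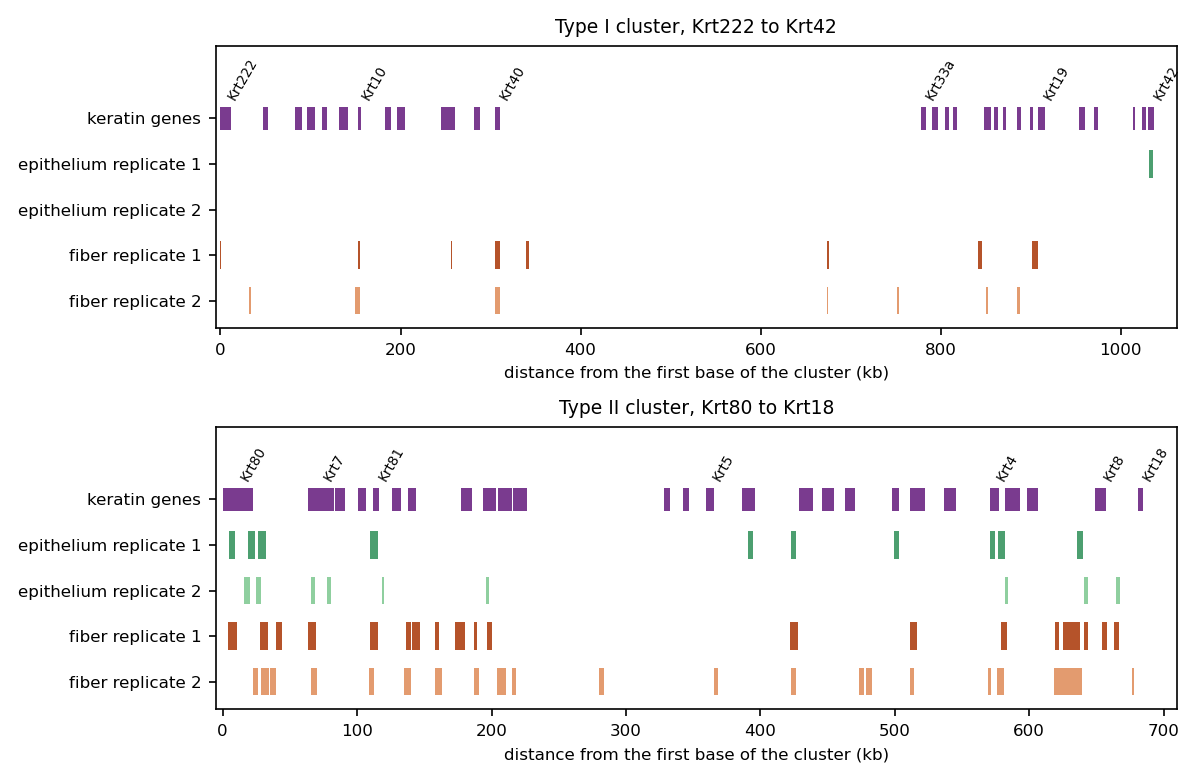
Keratin genes (purple) and islands of the 4 libraries along the chromosome 11 cluster (top) and the chromosome 15 cluster (bottom), by distance from the first base of the cluster in kb. Epithelium replicate 2 has no island in the upper cluster, the gap without keratin genes there is that of the Krtap genes, and the lower cluster holds 9 to 20 islands in each library.

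The genes just outside the clusters had islands more often than the keratins. Of the 20 protein-coding genes nearest to the clusters, 5 on each side, 13, 11, 16 and 14 had an island in the 4 libraries, where the share of all protein-coding genes was 28.6, 33.5, 54.5 and 60.5%, close to the neighbours in fiber replicate 2. Next to the chromosome 11 cluster, Eif1, a translation initiation factor gene, was covered over 100% of its window in all 4 libraries. Jup, which codes for plakoglobin of the desmosome and adherens junction, had 42.7, 35.6, 31.7 and 32.5%, with little spread between libraries. Gast, the gastrin gene, had 0, 0, 82.7 and 91.4%. Next to the chromosome 15 cluster, Eif4b had 22.7, 33.9, 100 and 87.4% and Tns2, which codes for a focal adhesion protein, 61.1, 77.8, 95.6 and 77.8%. Tns4 and Igfbp6 had no island in any library.

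Other genes of the same structural system were counted by the same rule, for which all protein-coding genes gave 28.6, 33.5, 54.5 and 60.5% in the 4 libraries, 22.4% in both epithelium and 51.7% in both fiber libraries. Of 16 intermediate filament genes other than keratins, 7, 8, 13 and 13 had an island, 7 in both epithelium and 12 in both fiber libraries, and Ina and Nefl had none. Their median covered share was 0, 4.79, 64.7 and 47.1%, against 0, 0, 4.44 and 7.98% for all protein-coding genes and 0% in each library for keratins. Vim (vimentin) had 25.7, 33.7, 89.0 and 100%, with both fiber libraries above both epithelium libraries. Bfsp1 had 0, 0, 100 and 100% and Bfsp2 24.2, 36.0, 89.2 and 89.9%. Of 11 genes for plakins, plakophilins and plakoglobin, which tie filaments to junctions, 6, 7, 9 and 9 had an island, 9 of them in both fiber libraries, while Dsp (desmoplakin) and Pkp1 had none. Plec, which codes for the cytolinker plectin, had 54.7, 44.6, 93.1 and 95.6%. Of 13 epithelial transcription, splicing and adhesion genes, 5, 3, 5 and 9 had an island, 2 in both epithelium and 5 in both fiber libraries, which is above the background in epithelium replicate 1 and fiber replicate 2 and below it in the other libraries and in both counts of shared genes. Among them Cdh1 (E-cadherin) had 16.5, 26.1, 41.9 and 50.1% and Grhl3, a factor of the epidermal barrier, 29.4, 29.7, 37.9 and 31.4%. Trp63, the master factor of stratified epithelia, as well as Epcam, Esrp1 and Ovol2 had none.

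The promoters of the keratins were compared with all promoters of the RefSeq table. Of the 53 genes, 36 were matched, with 37 promoters of 300 bases. The motif TATAAA on either strand was present in 19 of 37 (51.4%), against 13.6% of 31396 promoters on chromosomes 1 to 19. GGGCGG was present in 2 (5.41%), those of Krt7 and Krt75, against 36.0%, and TGANTCA in 2 (5.41%), both of Krt13, against 7.84%. The median GC content was 48.7% against 53%, and the median ratio of observed to expected CG was 0.280 against 0.389. The whole 300-base promoters of Krt7 and Krt18, of which parts are printed above, ranked 2 and 3 of the 37 in this ratio (0.641 and 0.603), and Krt28, which had no island, ranked 1 (0.782). Krt7 had islands in 3 libraries and Krt18 in none, so these 2 genes with similar ratios differed in island content. Promoters of keratins with an island in at least 1 library (18) held TATAAA in 44.4% and those without (19) in 57.9%, with median CG ratios of 0.239 and 0.314. These letters are descriptions of sequence and not of binding.

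Keratins are a multigene family with close copies, so reads of 75 nt were checked for places where they could map to more than 1 locus. Stretches of 75 nt that occur more than once in the assembly took 20.4% of the window of Krt6b, 18.0% of Krt6a, 14.2% of Krt81, 13.9% of Krt16 and 10.8% of Krt86, and under 10% in the other 48 members. They took 6.04% of the chromosome 11 cluster and 3.75% of the chromosome 15 cluster. The mapping mode that was used, BWA samse with default settings, places a read with several equally good hits at any of them at random, and later filters are not stated, so the values of these 5 genes are uncertain. Within the islands of Krt81, such stretches took 13.0, 11.7 and 0% in epithelium replicate 1 and fiber replicates 1 and 2. In fiber replicate 1 they also took 7.23% of the only Krt8 island and 6.92% of a Krt83 island, so these islands share the uncertainty in part. Over the other 48 members the difference between fibers and epithelium was 9.5 genes in place of 10.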

How the data were processed

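The 4 H3.3 ChIP-seq libraries were used; 12 bisulfite libraries and a pooled input were not analysed here. Before deposit the authors aligned their 75-nt single-end reads to mm10 by BWA (aln, samse) and ran SICER2 separately for every library. Windows were 200 bp, gaps up to 600 bp and the FDR limit 0.01, by the names of the lists. The deposited column used here holds counts of reads per island, without normalization. Versions, removal of duplicate reads and the use of the input in calling are not given in the sources used here. The labels give the age as P1 in sample titles and P0.5 in the protocol, and the study's methods give another number of lenses than the labels.

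Islands were joined to GENCODE vM21 genes of GRCm38.p6 with positions counted from 1, using Python 3.11.15, numpy 2.4.6, pandas 2.3.3 and scipy 1.17.1, after tests on simulated data. Reads are known only inside called islands, so no count model was fitted. Counts of genes were compared by an exact two-sided permutation test over the 4 libraries (6 splits, smallest p 0.33), and other values were described. The small number of libraries limits the precision. Named genes were Krt7, Krt8, Krt18, Krt19, members with an island, 11 keratins of known epithelia, the listed genes and the 5 neighbours on each side of a cluster. The members, lists and alternatives were chosen with earlier results of these data known. Krt74 and Krt85 of the lists were not analysed here. Alternatives changed the window, the islands used and the libraries.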

Additional observations from a re-analysis of the deposited data

How the results depend on the processing

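The comparison of compartments depends on the number of islands per library, since fibers had more islands than epithelium and total depth is unknown. With the 10389 densest islands of each library, 5 (epithelium) and 4.5 (fibers) keratin genes had an island, a difference of -0.5. The simple keratins then counted 0 and 0.5 and the others 5 and 4, and the Krt7 difference in covered share was 13.2 percentage points. With the 10389 islands of most reads the counts were 4.5 and 3, a difference of -1.5, with 0.5 and 0.5 simple and 4 and 2.5 other keratins, and the Krt7 difference was -0.470. With equal island numbers no counts were made over all protein-coding genes, and the cause was not tested. With 5 kb on each side 8.5 and 21.5 genes had an island (8 and 19 of them outside the simple keratins), a difference of 13, and the differences in covered share of Krt18 and Krt19 went from 0 to 6.5 and from 3.0 to 12.9 percentage points. Within 1 kb of the gene start the counts were 2 and 5.5 genes, 0 and 1 of them simple and 2 and 4.5 other. With at least 50% of the window covered they were 1.5 and 3, 0 and 0 simple and 1.5 and 3 other. With islands of at least the median density they were 1.5 and 6, 0 and 1 simple and 1.5 and 5 other. Leaving out each library in turn gave 4 to 7 genes in epithelium, 15 to 16 in fibers and a difference of 8.5 to 11.5, with 0 to 1 and 1 to 3 simple and 3 to 7 and 13 to 14 other keratins. The Krt7 difference then ranged from -3.76 (without epithelium replicate 1) to 23.5 (without epithelium replicate 2), and those of Krt8 and Krt19 were 0 without fiber replicate 1. The gene body alone, islands of at least 2000 bp and members with under 10% repeated sequence kept differences of 7.5, 10.5 and 9.5 genes. With the replicate number as a block the difference was 10 genes (exact permutation p = 0.50, the smallest possible), and the labels do not say what a shared number means.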
